A study of Mus musculus with 8 samples.

Results

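Basal cells of the mouse mammary gland that were sorted as negative for Lgr5 and high for Tspan8 (Lgr5-T8hi) are described here against the other 3 sorted populations of the same glands. They make up 2 of the 8 RNA sequencing libraries of the series. Their libraries were chosen by the sort labels alone, with no measured value. All cells came from female C57BL/6 mice of 10 weeks that carried the Lgr5-GFP-IRES-CreERT2 allele, in which green fluorescent protein is made from the Lgr5 locus, and no group was treated. Beside Lgr5-T8hi the populations were Lgr5-T8-, Lgr5+T8- and Lgr5+T8hi, and each had 2 libraries, 1 in each of 2 batches. The labels give the batch number but do not say what a batch was, how many mice were pooled, or whether replicates are different mice. P-values therefore measure only the spread between these libraries. Lgr5-T8hi libraries held 38384875 and 35121694 gene counts, and the other 6 held 24571300 to 36175181.

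Basal cells form the outer layer of mammary ducts and alveoli, contract in response to oxytocin to expel milk, and include cells that can rebuild a gland on transplantation. Lgr5 is a receptor for R-spondins, which amplify Wnt signalling, and marks stem cells in several epithelia. Tspan8 is a tetraspanin, a membrane-spanning surface protein that organises other membrane proteins. The luminal layer inside the basal one makes milk proteins and holds the progenitors of the secretory cells.

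The 2 sort genes were in part ordered as their labels say. Tspan8 had 167 and 150 CPM (counts per 1000000 counts, scaled between libraries) in Lgr5-T8hi, against 289 and 261 in Lgr5+T8hi, 10.6 and 6.82 in Lgr5+T8- and 4.37 and 3.16 in Lgr5-T8-. Lgr5-T8hi therefore lay between the groups, below Lgr5+T8hi (log2 difference -0.79, edgeR's quasi-likelihood F-test, Benjamini-Hochberg adjusted p = 0.00394) and above both T8- populations. Lgr5 RNA had 119 and 129 CPM in Lgr5-T8hi, against 174 and 193 in Lgr5+T8hi, 185 and 212 in Lgr5+T8- and 58.4 and 50.5 in Lgr5-T8-. Lgr5 RNA in Lgr5-T8hi was thus lower than in Lgr5+T8hi by edgeR (log2 difference -0.57, adjusted p = 0.0148), and higher than in the population that carries the same Lgr5- label (log2 difference 1.18, adjusted p = 5.68e-05). The genes themselves are neighbours on chromosome 10 of GRCm38, with Lgr5 at 115450314 to 115587780 and Tspan8 at 115816817 to 115849893, 229 kb apart. Markers of the labelled cell type were present, since Krt5 had 2227 and 2371 CPM in Lgr5-T8hi against 2106 to 2753 in the other 6 libraries, and Trp63, the transcription factor of basal cells, had 197 and 239 against 173 to 350. Of 20 basal epithelial markers, edgeR called 0 higher in Lgr5-T8hi than the mean of the other 3 and 1 lower, Igfbp2, which was not called without replicate 1 of Lgr5-T8hi (adjusted p = 0.208). DESeq2 and limma-voom gave the same 0 and 1, and the counts were 0 higher and 5 lower where p was left unadjusted and held under 0.05. The luminal keratin gene Krt8 was also counted in every population, with 746 and 523 CPM in Lgr5-T8hi against 427 to 835 in the others.

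Across all genes, Lgr5-T8hi stood between the other populations more often than at either end. Among 11171 genes with at least 5 CPM on average, its mean was the highest of the 4 in 11.4% and the lowest in 15.3%, and it was the second highest in 32.3% and the second lowest in 40.9%. For comparison, Lgr5+T8hi was highest in 21.2% and lowest in 38.9%, Lgr5+T8- in 35.4% and 12.5%, and Lgr5-T8- in 32.0% and 33.4%. Over the same genes the root mean square log2 difference of Lgr5-T8hi was 0.243 from Lgr5+T8hi, 0.294 from Lgr5+T8- and 0.322 from Lgr5-T8-, each less than any difference among the other 3 (0.347 to 0.471). In principal components of log2 CPM centred within batches, Lgr5-T8hi lay near the middle of components 1 and 2, at -9.01 and -11.11 on component 1. On component 3 it was at the end, at 31.71 and 17.04 against -13.04 to 2.16 in the other 6 libraries, and component 3 held 11.4% of the variance.

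**Figure D1:**
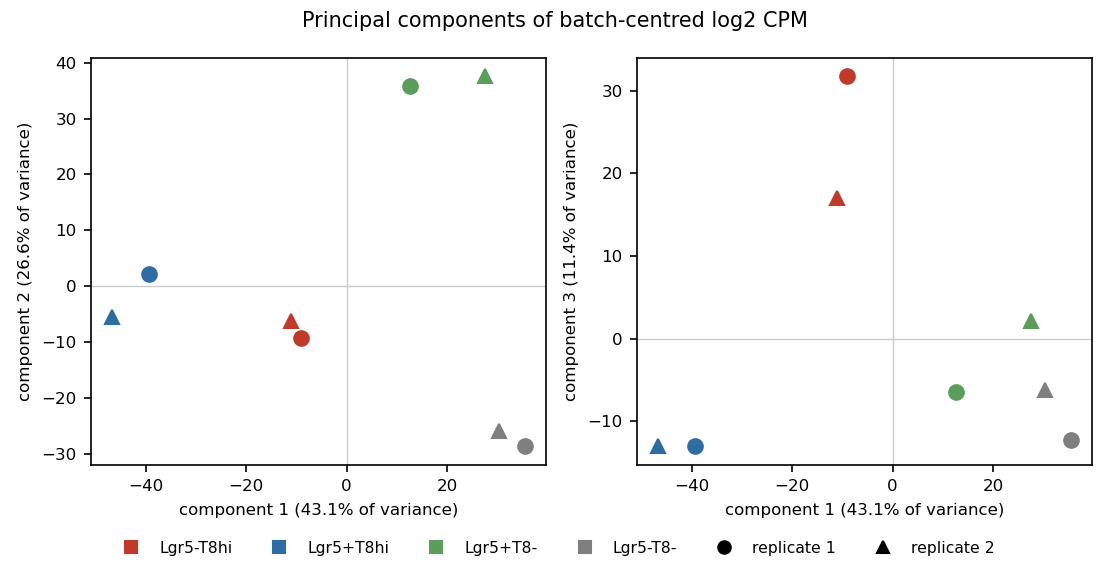
Principal components of log2 CPM centred within each batch, 1 point per library, with component 1 on the x axis and component 2 (left) or 3 (right) on the y axis; colour gives the population and shape the replicate. Lgr5-T8hi lies between the other populations on components 1 and 2 and above them on component 3, at 31.71 in replicate 1 and 17.04 in replicate 2.

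Against the mean of the other 3 populations, 199 of the 16526 genes tested were higher in Lgr5-T8hi (1.2%) and 40 were lower (0.242%) at an adjusted p under 0.05 by edgeR with batch in the model. The median log2 difference of the called genes was 1.13 for the higher and -0.51 for the lower, and 91 of the higher genes averaged under 5 CPM. In RNA of sorted pools, more cells of a type and more RNA per cell cannot be told apart. Each single population gave its own counts, and these 3 comparisons share the Lgr5-T8hi libraries. Against Lgr5+T8hi, 173 genes were higher (1.05%) and 379 lower (2.29%). These were 25 and 44 without replicate 1 of Lgr5-T8hi, and without replicate 1 or 2 of Lgr5+T8hi they were 11 and 32 or 24 and 23. Against Lgr5+T8-, 561 were higher (3.39%) and 149 lower (0.902%). Against Lgr5-T8-, 611 were higher (3.7%) and 556 lower (3.36%). Without batch in the model edgeR called 9 genes higher and 0 lower than the mean, with 457 and 152 at an unadjusted p under 0.05. The 9 genes were Tspan8, Adam11, Csn3, Chil1, Kcna2, Wfdc18, Gfra3, Lalba and Ehf. Leaving out replicate 1 of Lgr5-T8hi, 40 genes were called higher and 1 lower, without replicate 1 of Lgr5+T8hi 94 and 11, and without replicate 2 of Lgr5-T8- 344 and 137. The lower count also moved without replicate 2 of Lgr5-T8hi (165 higher, 14 lower), replicate 2 of Lgr5+T8hi (149 and 17), replicate 1 of Lgr5+T8- (167 and 19) and replicate 1 of Lgr5-T8- (248 and 74).

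Most of the genes called against the mean did not single out Lgr5-T8hi. Of the 199 higher genes, 111 were called higher than both T8- populations but not than Lgr5+T8hi, and 17 were called higher than both Lgr5+ populations but not than Lgr5-T8-. A further 41 were called against 1 population and 1 against none. Only 29 genes (0.175% of those tested) were higher than each of the other 3 populations, and 1 gene (0.00605%) was lower than each. The same rule, a call against the mean and against each of the 3, gave 280 higher (1.69%) and 65 lower genes (0.393%) for Lgr5+T8hi. It gave 16 (0.0968%) and 163 (0.986%) for Lgr5+T8-, and 335 (2.03%) and 291 (1.76%) for Lgr5-T8-. By position alone, both Lgr5-T8hi libraries lay above all 6 others in 246 genes (1.49%) and below all 6 in 207 (1.25%).

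**Figure D2:**
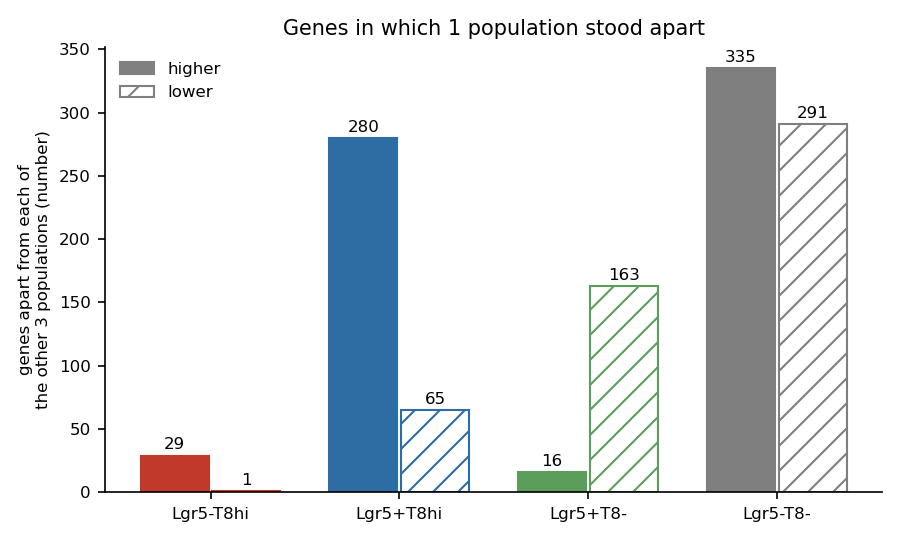
Bars give the number of genes, of 16526 tested, in which a population was called higher (filled) or lower (hatched) than the mean of the other 3 and than each of them by edgeR at an adjusted p under 0.05. Lgr5-T8hi had 29 higher and 1 lower, against 280 and 65 in Lgr5+T8hi, 16 and 163 in Lgr5+T8-, and 335 and 291 in Lgr5-T8-.

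These 29 genes are referred to as apart. All 29 differed in the same direction in both batches, the difference was larger in batch 1 for 25, and in 24 both Lgr5-T8hi libraries lay above all 6 others. Over all genes tested, both lay above all 6 others in 1.49%. The 29 were called on these same libraries, so their shared direction and position are no further support. Of the 29, 12 averaged at least 5 CPM and 17 less. Among the 17, 6 (Igsf21, Lmod2, Myh4, Serpind1, Tnnt3 and Zfp536) passed the filter on low counts only through the Lgr5-T8hi libraries, in which they were high. Genes that pass in this way are biased towards higher values in Lgr5-T8hi. Of 157 such genes tested, 17 were called higher than the mean. Without these 6, 23 of the 29 are left, and 182 of the 199 genes called higher than the mean are left without the 17 genes of that kind. When each library was left out in turn, 15 of the 29 kept an adjusted p under 0.05 against the mean in every fit, and the other 14 each lost it without replicate 1 of Lgr5-T8hi. Without that library, or without either library of Lgr5+T8hi, most of the 29 were no longer called against all 3 populations as well. Only Greb1 and Trf were still apart without replicate 1 of Lgr5+T8hi. Without replicate 2 of Lgr5-T8- most of the 29 stayed apart, and genes outside the 29 were apart too. Over the fits with each library left out in turn, Greb1 was apart in all, while Kcnk5 and Lmod2 were apart in none. Chil1, Mybph, Csn3, Ceacam1, Col20a1 and Gfra3 were apart in most of them. Acta1, Asb5, Ckm, Fcgr2b, Megf10, Olfml3 and Serpind1 were apart in few, and the rest lay between.

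Greb1, named in human cells for its induction by oestrogen in breast cancer, had 59.7 and 35.0 CPM in Lgr5-T8hi, against 17.4 and 13.9 in Lgr5+T8hi, 13.3 and 8.77 in Lgr5+T8- and 23.6 and 18.2 in Lgr5-T8-. The groups did not overlap, and within each population replicate 1 was the higher. Its log2 difference from the mean was 1.60 (SE 0.09, edgeR adjusted p = 4.09e-06), and 1.56, 2.08 and 1.15 from Lgr5+T8hi, Lgr5+T8- and Lgr5-T8-. The genes of the ovarian hormone receptors were not called. The oestrogen receptor gene Esr1 had 15.1 and 9.91 CPM in Lgr5-T8hi against 7.93 to 12.5 in the others (edgeR adjusted p = 0.535), and the progesterone receptor gene Pgr had 18.3 and 22.9 against 17.9 to 25.4 (adjusted p = 0.996). These receptor genes were chosen after their values had been seen. Of 16 genes typical of hormone-sensing luminal cells, 0 were called in either direction by edgeR, DESeq2 or limma-voom, with 4 higher and 1 lower at an unadjusted edgeR p under 0.05.

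The promoters of Greb1 and Col20a1 are shown because, among the apart genes of at least 5 CPM, these have the largest fold of those with an entry in RefSeq's table for GRCm38.p6. Each window runs from 250 bases before to 50 bases after a transcription start on the strand of the gene, 5′ to 3′. Capitals mark every copy of the oestrogen response element half-site, searched as GGTCA on both strands (TGACC on the printed one).
Greb1, first start, chr12:16800837-16801136, minus strand: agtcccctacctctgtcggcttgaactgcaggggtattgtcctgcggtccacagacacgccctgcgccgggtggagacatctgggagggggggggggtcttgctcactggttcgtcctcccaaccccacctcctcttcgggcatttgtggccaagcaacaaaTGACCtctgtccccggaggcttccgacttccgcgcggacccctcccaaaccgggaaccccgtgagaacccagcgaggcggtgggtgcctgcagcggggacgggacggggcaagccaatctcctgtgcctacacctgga
Greb1, second start, chr12:16757190-16757489, minus strand: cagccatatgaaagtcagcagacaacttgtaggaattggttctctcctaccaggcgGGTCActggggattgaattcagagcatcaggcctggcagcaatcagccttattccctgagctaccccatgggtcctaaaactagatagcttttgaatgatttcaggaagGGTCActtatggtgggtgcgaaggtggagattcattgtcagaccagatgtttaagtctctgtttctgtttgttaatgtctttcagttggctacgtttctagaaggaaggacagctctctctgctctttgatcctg
Col20a1, chr2:180986285-180986584, plus strand: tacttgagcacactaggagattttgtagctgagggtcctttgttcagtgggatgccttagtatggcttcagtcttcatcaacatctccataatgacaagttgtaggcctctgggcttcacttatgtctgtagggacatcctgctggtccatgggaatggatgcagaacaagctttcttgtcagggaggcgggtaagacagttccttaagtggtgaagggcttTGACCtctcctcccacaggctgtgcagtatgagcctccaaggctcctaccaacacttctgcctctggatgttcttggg
The first Greb1 window held 1 half-site, beginning 88 bases before the start, and the second held 2, at 194 and 85 bases before it. The Col20a1 window held 1, at 28 bases before the start. The half-site is common, and 40.5% of 32851 mouse promoter windows of this length held at least 1. The full palindrome GGTCANNNTGACC was in none of these 3 windows and in 0.07% of all. A TATAAA box (13.6% of all windows) and the STAT site TTCNNNGAA (8.3%) were searched too, on both strands, and were not in these windows.

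Chil1 and Mybph, which lie 3.39 kb apart on chromosome 1, were both higher in Lgr5-T8hi. Chil1 encodes a secreted chitinase-like glycoprotein. It had 1909 and 1526 CPM in Lgr5-T8hi, against 756 and 710 in Lgr5+T8hi, 562 and 497 in Lgr5+T8- and 745 and 906 in Lgr5-T8-. Both Lgr5-T8hi libraries were far above the rest, and the log2 difference from the mean was 1.32 (SE 0.10, edgeR adjusted p = 8.1e-05). Mybph, which encodes a myosin-binding protein known from muscle, had 117 and 105 CPM in Lgr5-T8hi against 55.9 to 77.2 in the other 6 libraries. Its log2 difference was 0.77 (SE 0.08, adjusted p = 0.00053) and was nearly alike in the batches, at 0.75 and 0.79. Chil1 spans 134182156 to 134190031 and Mybph 134193418 to 134201237, so they do not overlap, but nothing in the labels says whether reads were assigned by strand.

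Trf, the iron carrier transferrin, had 727 and 648 CPM in Lgr5-T8hi, against 312 and 326 in Lgr5+T8hi, 343 and 336 in Lgr5+T8- and 472 and 541 in Lgr5-T8-. The groups did not overlap, and Lgr5-T8- was the nearest, with a log2 difference of 0.44 (edgeR adjusted p = 0.0245) beside 1.11 from Lgr5+T8hi. Aldoc, a glycolytic aldolase best known from brain, had 32.7 and 26.5 CPM against 13.2 to 20.6, a log2 difference of 0.83 (SE 0.09, adjusted p = 0.000618). Ceacam1, an adhesion molecule of epithelial and immune cells, had 76.7 and 40.7 CPM in Lgr5-T8hi, against 42.4 and 30.1 in Lgr5+T8hi, and the ranges overlapped across batches while the order held within each. The log2 difference of Ceacam1 was 1.33 from the mean and 0.65 from Lgr5+T8hi (edgeR adjusted p = 0.00959). Of 25 genes of hypoxia and glycolysis, Aldoc and Hk2 (0.35, adjusted p = 0.0392) were the 2 called higher than the mean and 0 were called lower. The share of all genes tested that was called higher than the mean was 1.2%. Hk2 was not called without replicate 1 of Lgr5-T8hi (edgeR adjusted p = 0.965).

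Another 4 genes of at least 5 CPM were higher than each population. Col20a1, a collagen that associates with other collagen fibrils, had 13.8 and 6.37 CPM in Lgr5-T8hi against 2.79 to 5.79. Olfml3, a secreted olfactomedin-domain protein, had 23.9 and 35.0 against 8.44 to 26.1, and Lnx1, a ubiquitin ligase that binds Numb, had 21.1 and 10.4 against 5.90 to 11.6. Kcnk5, a background potassium channel, was nearly equal in the 2 Lgr5-T8hi libraries, at 38.6 and 37.9 CPM against 25.5 to 31.9. Their log2 differences from the mean were 1.42, 0.80, 0.89 and 0.46. With replicate 1 of Lgr5-T8hi left out, the edgeR adjusted p was 0.17 for Col20a1, 0.128 for Olfml3, 0.466 for Lnx1 and 0.204 for Kcnk5, and Kcnk5 was also not called without replicate 2 of Lgr5-T8hi (0.278) or replicate 1 of Lgr5+T8hi (0.0603). The 1 gene lower than each population was Sorcs2, a sorting receptor of the Vps10 family. It had 25.5 and 27.1 CPM in Lgr5-T8hi against 33.5 to 40.1 in the other 6 libraries, which did not overlap. Its log2 difference was -0.48 (SE 0.08, adjusted p = 0.00975), and it was not called without replicate 1 (0.611) or replicate 2 (0.0955) of Lgr5-T8hi or replicate 1 of Lgr5+T8hi (0.0537). DESeq2 called Sorcs2 against the mean but not against each population.

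**Figure D3:**
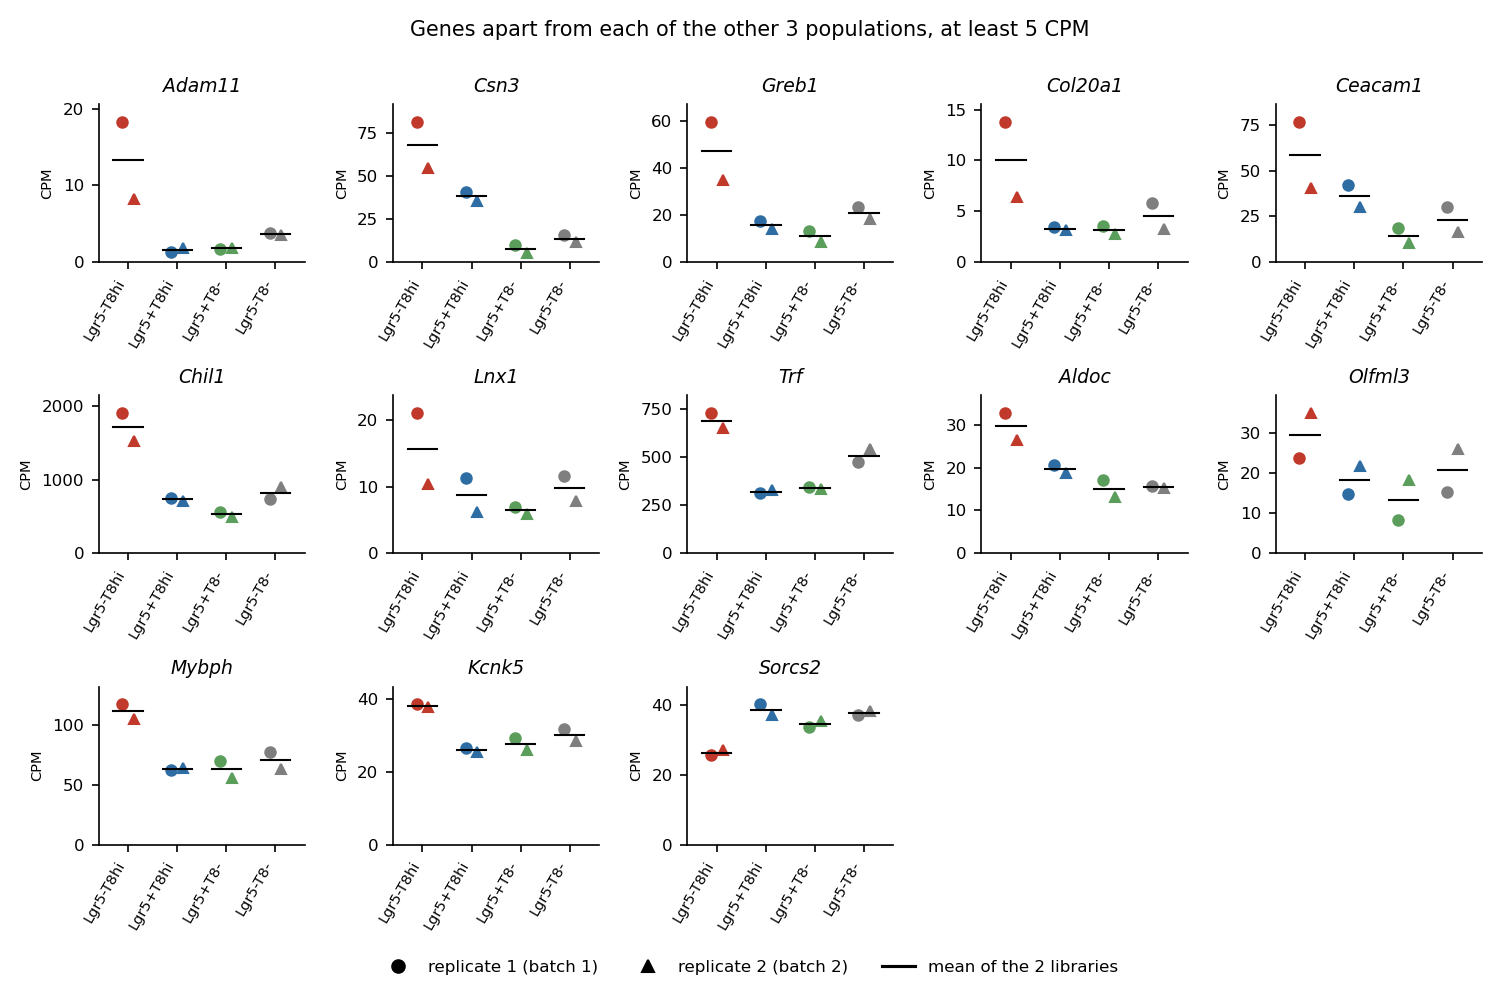
CPM of the 13 genes of at least 5 CPM that differed between Lgr5-T8hi and each of the other 3 populations; each point is a library, circles are replicate 1 and triangles replicate 2, and the line is the mean of 2. Lgr5-T8hi is the highest population in 12 panels and the lowest in Sorcs2 (25.5 and 27.1 CPM), and in Ceacam1, Lnx1 and Olfml3 single libraries overlap.

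Of 17 milk and luminal progenitor genes tested, 13 were higher in Lgr5-T8hi than in Lgr5+T8- and 12 higher than in Lgr5-T8-, and the 2 that were apart were Csn3 and Lalba. Csn3, the casein that keeps milk micelles in solution, had 81.4 and 54.7 CPM in Lgr5-T8hi, against 40.8 and 35.6 in Lgr5+T8hi, 10.2 and 5.54 in Lgr5+T8- and 15.9 and 11.5 in Lgr5-T8-. The order was the same in both batches, and log2 differences were 2.08 from the mean (SE 0.10, edgeR adjusted p = 1.66e-06) and 0.81 from Lgr5+T8hi (adjusted p = 0.00756). Lalba, the alpha-lactalbumin subunit of lactose synthase, had 3.52 and 2.64 CPM in Lgr5-T8hi against 0.220 to 0.719 in the others, which were 128 and 99 counts against 6 to 21. Its log2 difference was 2.85 (SE 0.23, adjusted p = 9.45e-05).

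Of the 21 genes on a list of milk proteins and luminal progenitor genes, 17 passed the count filter, 11 were higher than the mean by edgeR and 0 lower. Their median log2 difference was 0.86, beside -0.01 over all genes tested. Against Lgr5+T8hi 4 were higher (Csn3, Lalba, Mfge8 and Lcn2) and 1 was lower (Slpi), with a median of 0.46. Against Lgr5+T8- they were 13 and 1 (median 1.45), and against Lgr5-T8- 12 and 1 (median 1.43). The others called against the mean were Wfdc18, Btn1a1, Elf5, Kit, Cd14, Aldh1a3, Ehf, Plet1 and Lif. Elf5, the transcription factor that directs alveolar development, had 5.58 and 7.70 CPM in Lgr5-T8hi, against 2.91 and 5.52 in Lgr5+T8hi and 0.718 to 1.65 in the T8- populations (log2 1.99, edgeR adjusted p = 0.000152; 0.124 against Lgr5+T8hi). Ehf, a related Ets factor of epithelia, had 10.4 and 11.8 against 7.35 and 7.98 in Lgr5+T8hi and 2.20 to 3.82 in the T8- populations (log2 1.48, adjusted p = 8.1e-05). Wfdc18, a small secreted protein of the whey acidic protein family, had 36.0 and 39.5 against 24.9 and 28.3 in Lgr5+T8hi and 3.70 to 7.59 in the T8- populations (log2 2.02, adjusted p = 8.1e-05). In all 3 genes both Lgr5-T8hi libraries were above the other 6, as in 1.49% of all genes tested, but none was called against Lgr5+T8hi. The count of 11 was 7 without replicate 1 of Lgr5-T8hi, 9 without its replicate 2, and 4 without batch in the model. In the fit without replicate 1 of Lgr5-T8hi, Kit (edgeR adjusted p = 0.208), Aldh1a3 (0.0532) and Lif (0.0966) were among those not called. Kit was also not called without replicate 2 of Lgr5-T8hi (0.149) or either library of Lgr5-T8- (0.162 and 0.141). Fibroblast markers moved in the same comparisons, with 9 of 16 higher and 1 lower in Lgr5-T8hi than in Lgr5+T8- (median 1.06), and 9 and 1 than in Lgr5-T8- (median 0.79). Of 10 pericyte markers, 6 were higher and 1 lower than in Lgr5+T8- (median 0.80), and 0 were called against Lgr5-T8- (median 0.25). Over all genes tested, 1.2% were higher than the mean, 1.05% than in Lgr5+T8hi, 3.39% than in Lgr5+T8- and 3.7% than in Lgr5-T8-. The part of these markers in the milk and luminal result was not tested.

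Of 17 genes shared by luminal cells, Cldn7 (1.00) and Ocln (0.83) were called higher than the mean and 0 lower. Against Lgr5+T8hi 0 were higher and 2 lower (median -0.19), against Lgr5+T8- 3 and 0 (0.14), and against Lgr5-T8- 9 and 0 (0.52). Krt18 had 414 and 264 CPM in Lgr5-T8hi against 154 to 458 in the others (edgeR adjusted p = 0.509), and Epcam had 683 and 477 against 369 to 710 (0.915). Ocln, the tight junction protein occludin, had 34.2 and 18.8 CPM in Lgr5-T8hi, against 57.1 and 32.7 in Lgr5+T8hi, 24.3 and 13.4 in Lgr5+T8- and 4.34 and 3.31 in Lgr5-T8-. Lgr5-T8hi was thus second in both batches. Over all genes tested, 1.2% were higher than the mean, 3.39% higher than Lgr5+T8-, 3.7% higher than Lgr5-T8- and 2.29% lower than Lgr5+T8hi. Of 26 tight junction genes tested, 4 (Cldn1, Cldn7, Ocln and Marveld2) were higher than the mean and 0 lower, while 0 were higher and 3 lower than Lgr5+T8hi. None of these (0 of 26) was called by edgeR without replicate 1 of Lgr5-T8hi, with adjusted p of 0.624, 0.0628, 0.0589 and 0.251.

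Genes of skeletal muscle, all at low levels, were in part higher in Lgr5-T8hi. Of 14 such genes, 9 were higher than the mean and 0 lower by edgeR, with a median log2 difference of 1.63, and 5 were higher than Lgr5+T8hi, 9 than Lgr5+T8- and 9 than Lgr5-T8-. Of the 9, 4 (Myh4, Myl1, Pvalb and Tnnt3) passed the filter on low counts only through the Lgr5-T8hi libraries, and over the other 10 members 5 were higher, with a median of 1.32. The counts against single populations were made with these 4 included. Over all genes tested, 1.2% were higher than the mean, 1.05% than Lgr5+T8hi, 3.39% than Lgr5+T8- and 3.7% than Lgr5-T8-. The summed level of the 14 was 31.7 and 18.3 CPM in Lgr5-T8hi, against 9.97 and 9.85 in Lgr5+T8hi, 10.5 and 9.38 in Lgr5+T8- and 12.9 and 7.94 in Lgr5-T8-. Of the 14 markers, 0 were at 0 in either Lgr5-T8hi library, and 0 to 3 were at 0 in each of the others. Myh4, the fast-twitch myosin heavy chain, had 110 and 32 counts in Lgr5-T8hi, 0 and 0 in Lgr5+T8hi, 0 and 1 in Lgr5+T8- and 1 and 0 in Lgr5-T8-. Against a floor of 3 counts over the 2 Lgr5+T8hi libraries it was at least 39.1-fold higher. Myh4 passed the filter only through Lgr5-T8hi, so this fold is a description and no support for the list. Acta1, the skeletal actin, had 3.71 and 2.96 CPM against 0.439 to 1.42 (log2 1.79, adjusted p = 0.00262). Ckm, Tnnt3 and Atp2a1, which encode muscle creatine kinase, fast troponin T and the calcium pump of fast fibres, had log2 differences of 1.92, 3.23 and 1.73. Myl1, Pvalb, Tnnc2, Tnni2 and Mylpf of the list were called against the mean but not against Lgr5+T8hi. The count of 9 was 2 without replicate 1 of Lgr5-T8hi, 6 without its replicate 2, 6 without replicate 1 of Lgr5+T8hi, 7 by DESeq2 and 0 without batch in the model. Without replicate 1 of Lgr5-T8hi the edgeR adjusted p was 0.212 for Ckm, 0.0966 for Tnnt3 and 0.349 for Atp2a1, and the 2 genes kept were Myh4 and Acta1.

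Gfra3, Adam11, Kcna2 and L1cam were called higher than the mean one by one, and they are no list of their own. Gfra3, the receptor for artemin on sensory neurons and Schwann cells, had 14.6 and 5.51 CPM in Lgr5-T8hi against 0.758 to 1.95 in the other 6 libraries (log2 2.89, SE 0.24, edgeR adjusted p = 0.000439). Adam11, a catalytically inactive ADAM protein of neurons, had 18.3 and 8.26 CPM against 1.38 to 3.82 (log2 2.55, SE 0.24, adjusted p = 0.00236). In both genes the groups did not overlap and replicate 1 was the higher Lgr5-T8hi library. Kcna2, a voltage-gated potassium channel of axons, had 18.2 and 7.70 CPM in Lgr5-T8hi, against 1.87 and 1.82 in Lgr5+T8hi, 0.346 and 0.279 in Lgr5+T8- and 4 and 6.65 in Lgr5-T8-. It was called against the mean (log2 3.1, adjusted p = 0.0148) and both Lgr5+ populations, but not against Lgr5-T8- (adjusted p = 0.188). L1cam, an adhesion molecule of axons and Schwann cells, had 19.7 and 8.84 CPM against 1.20 to 6.36 and was called against the mean (1.98, adjusted p = 0.0158) and 1 population. The edgeR call of Kcna2 was lost without replicate 1 of Lgr5+T8- (0.0558) or either library of Lgr5+T8hi (0.0657 and 0.0523), and that of L1cam without replicate 1 of Lgr5+T8- (0.0517).

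Of 10 Schwann and glial markers, Gfra3 and S100b (log2 1.48, adjusted p = 0.0243) were higher than the mean and 0 were lower by edgeR, and DESeq2 called 4 higher. The median was 0.16, and their summed level was 848 and 745 CPM in Lgr5-T8hi against 676 to 853 in the others, with 0 of the 10 at 0 in any library. Against Lgr5+T8hi 1 was higher and 0 lower, against Lgr5+T8- 4 and 0, and against Lgr5-T8- 3 and 0. The shares of all genes tested called higher were 1.2% against the mean, 1.05% against Lgr5+T8hi, 3.39% against Lgr5+T8- and 3.7% against Lgr5-T8-. Mbp, which encodes a structural protein of myelin, had 45.8 and 38.4 CPM in Lgr5-T8hi against 24.8 to 57.1 in the others and was not called (edgeR adjusted p = 0.309). Cdh19, a cadherin of Schwann cell precursors, had 17.1 and 4.58 CPM in Lgr5-T8hi against 0.279 to 6.43 in the others, and was the higher in replicate 1, with an edgeR adjusted p of 0.0934. S100b was not called without replicate 1 of Lgr5-T8hi (edgeR adjusted p = 1), replicate 1 (0.146) or 2 (0.0671) of Lgr5+T8hi or replicate 2 of Lgr5+T8- (0.057).

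**Figure D4:**
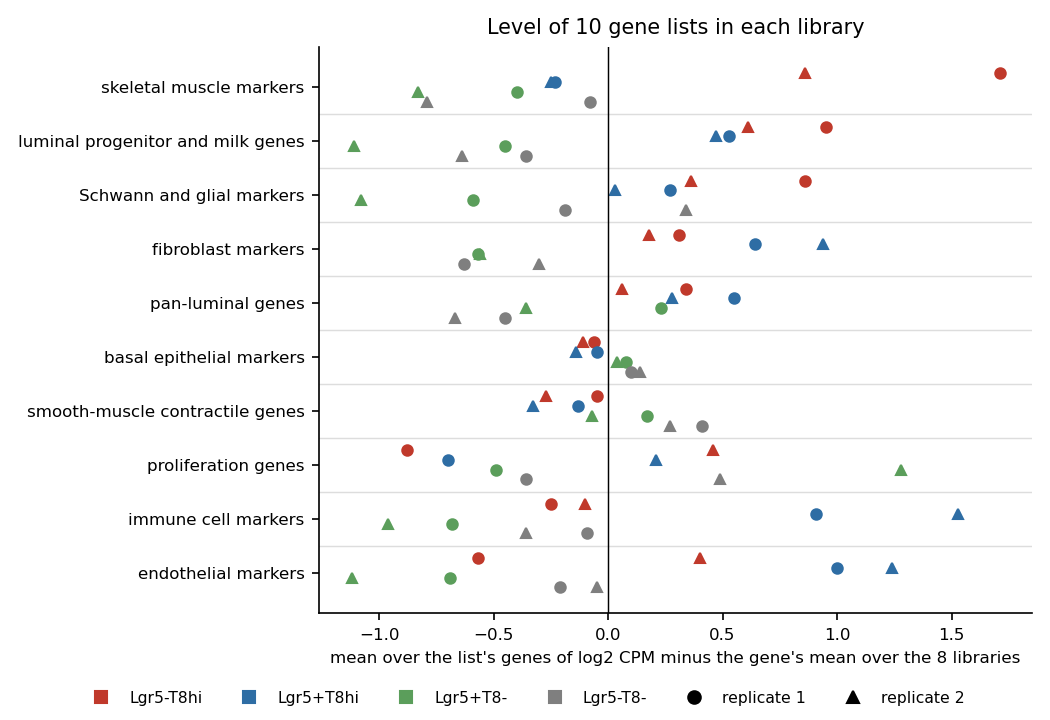
For 10 gene lists, each point is a library's mean, over the list's genes, of log2 CPM minus the gene's mean over the 8 libraries (x axis); colour gives the population and shape the replicate. Lgr5-T8hi lies highest for skeletal muscle markers (1.71 and 0.86) and for luminal progenitor and milk genes (0.95 and 0.61), and below both T8- populations within each replicate for smooth-muscle contractile genes (-0.05 and -0.27). Of the 14 skeletal muscle markers, 4 passed the filter on low counts only through Lgr5-T8hi, which biases its position for that list upwards.

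The other apart genes averaged under 5 CPM. Sema5b, a semaphorin guidance protein, was the only one of the 17 with its higher value in replicate 2, at 7.91 and 10.9 CPM in Lgr5-T8hi against 2.14 to 4.27 in the others (log2 1.49, SE 0.13, edgeR adjusted p = 0.00013). Slc28a3, a nucleoside transporter, had 9.20 and 4.93 CPM in Lgr5-T8hi, against 3.11 and 3.37 in Lgr5+T8hi and 0.478 to 1.24 in the T8- populations (log2 2.51, adjusted p = 0.00011). Fcgr2b, the inhibitory receptor for antibody Fc, had 9.09 and 3.36 CPM against 0.239 to 2.13 (2.74, adjusted p = 0.00457). All 3 kept their call against the mean with each library left out, while they were apart in 5 (Sema5b), 4 (Slc28a3) and 2 (Fcgr2b) of those 8 fits. Of 17 immune cell genes tested, 0 were called in either direction by edgeR, DESeq2 or limma-voom (0 higher and 1 lower at an unadjusted edgeR p under 0.05). The remaining genes were Sema4f, Megf10, Serpind1, Asb5, Lmod2, Igsf21 and Zfp536, with 11 to 123 counts in the Lgr5-T8hi libraries. Zfp536 had 44 and 15 counts in Lgr5-T8hi and 0 and 0 in Lgr5+T8-, at least 15.1-fold higher against a floor of 3 counts over the group. Zfp536, Igsf21, Lmod2 and Serpind1 passed the filter on low counts only through Lgr5-T8hi. Their counts and this fold are therefore a description and no support. Igsf21 had 60 and 13 counts against 0 to 4 in the other libraries, and Lmod2, which nucleates thin filaments of striated muscle, 22 and 13 against 0 to 4. These 7 genes had edgeR adjusted p, without replicate 1 of Lgr5-T8hi, between 0.208 (Lmod2) and 1 (Igsf21 and Serpind1). Serpind1 was also lost without replicate 1 of Lgr5+T8- (0.0661) or of Lgr5+T8hi (0.124), and DESeq2 did not call Igsf21 (0.495) or Serpind1 (0.0829).

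**Figure D5:**
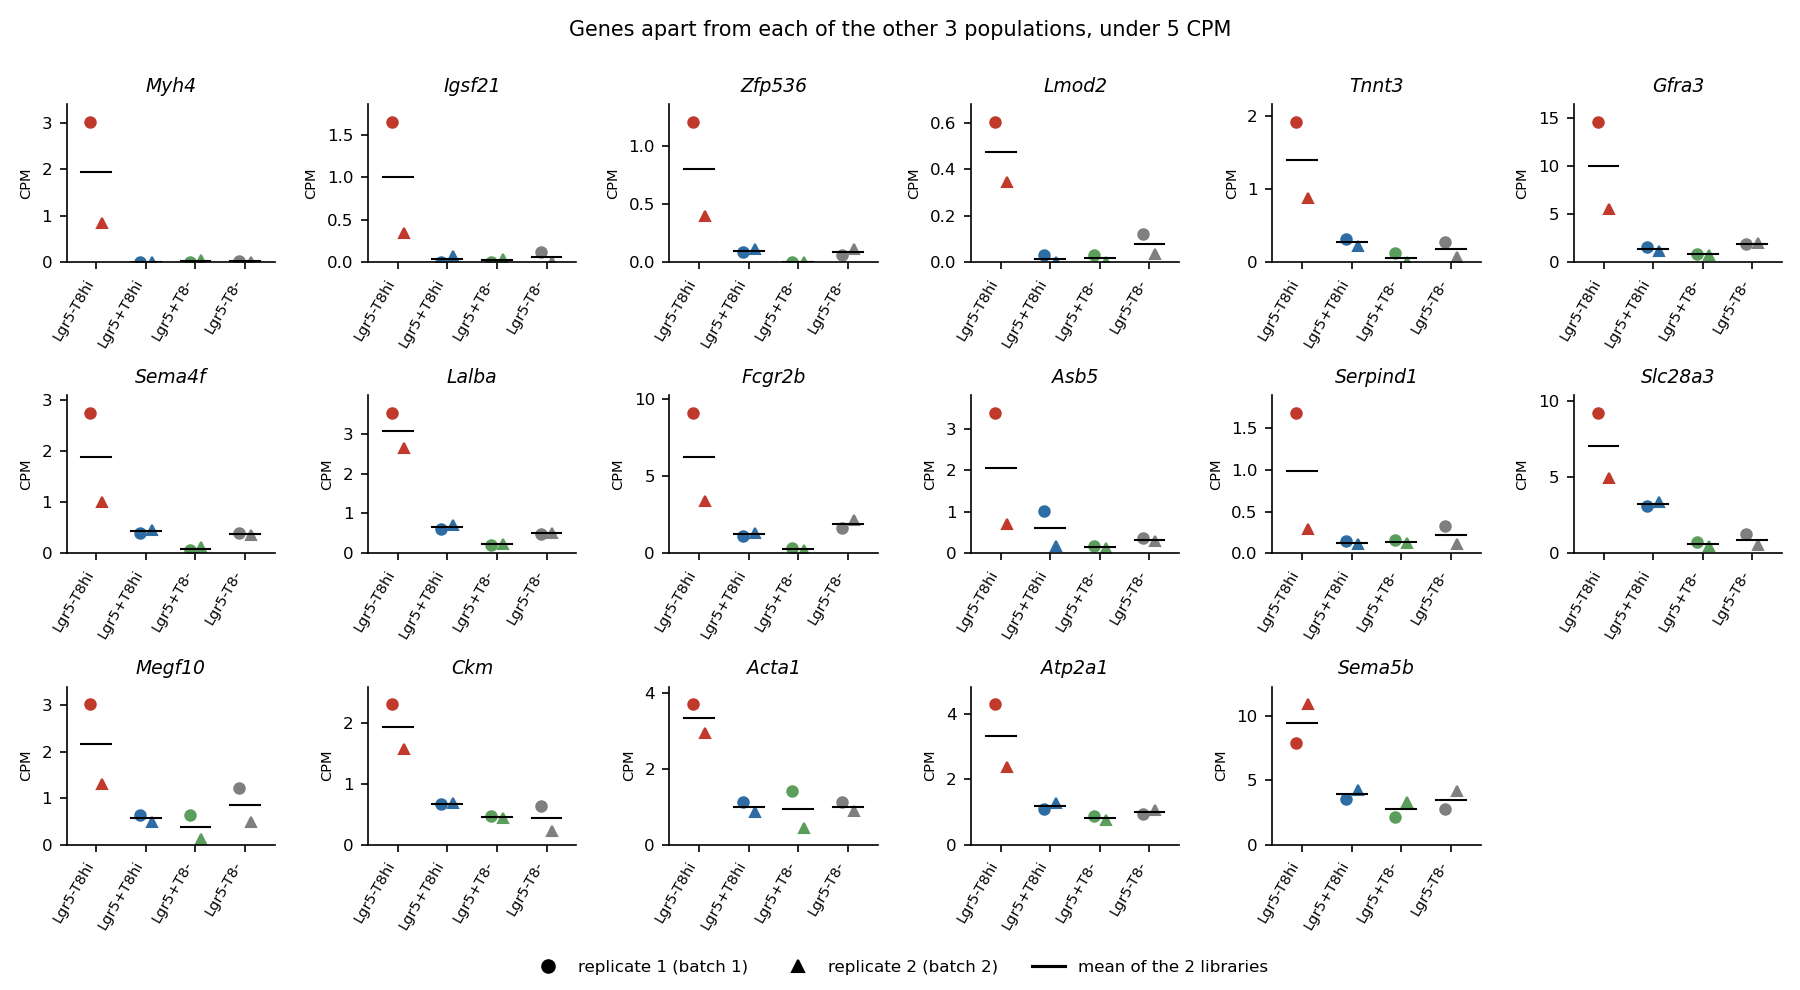
CPM of the 17 genes under 5 CPM on average that were higher in Lgr5-T8hi than in each of the other 3 populations; each point is a library, circles are replicate 1 and triangles replicate 2, and the line is the mean of 2. Replicate 1 of Lgr5-T8hi is the highest library in 16 panels, and in Sema5b replicate 2 is (10.9 CPM).

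Contractile genes of the basal layer were lower in Lgr5-T8hi than in the T8- populations and near their level in Lgr5+T8hi. Of 22 genes of the smooth-muscle apparatus, 5 were lower than the mean by edgeR and 1 higher, with a median log2 difference of -0.29. Against Lgr5+T8hi 2 were higher and 1 lower (median 0.07), against Lgr5+T8- 3 and 10 (-0.35), and against Lgr5-T8- 0 and 14 (-0.54). Over all genes tested, 0.242% were lower than the mean, 2.29% than Lgr5+T8hi, 0.902% than Lgr5+T8- and 3.36% than Lgr5-T8-. Kcnmb1, the accessory subunit of the large calcium-activated potassium channel of smooth muscle, had 19.1 and 21.1 CPM in Lgr5-T8hi, against 13.3 and 13.2 in Lgr5+T8hi, 39.4 and 42.1 in Lgr5+T8- and 57.4 and 64.4 in Lgr5-T8-. It fell against the mean by 0.67 on the log2 scale (SE 0.08, adjusted p = 0.00153) and was higher than in Lgr5+T8hi (log2 0.60, adjusted p = 0.00808). Actg2, the enteric smooth-muscle actin, followed the same order, with 137 and 204 CPM in Lgr5-T8hi, against 103 and 126 in Lgr5+T8hi, 254 and 338 in Lgr5+T8- and 363 and 435 in Lgr5-T8-. Myh11, Cnn1 and Synpo2 were the other 3 lower genes, at -0.44, -0.48 and -0.49. Acta2, the most used marker of this layer, had 4099 and 4019 CPM in Lgr5-T8hi against 3330 to 6760 in the others and was not called (adjusted p = 0.11). The 1 higher gene was Des, the intermediate filament protein of muscle (0.57, adjusted p = 0.0226), and 0 were higher without replicate 1 of Lgr5-T8hi, replicate 1 of Lgr5+T8- or either library of Lgr5+T8hi. The count of 5 lower was 12 by DESeq2, 0 without replicate 1 of Lgr5-T8hi, 2 without its replicate 2 or replicate 1 of Lgr5+T8hi, 3 without replicate 2 of Lgr5+T8hi or replicate 1 of Lgr5+T8-, and 11 and 12 without either library of Lgr5-T8-.

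Other lower genes were shared with a neighbouring population. Igfbp2, a carrier of insulin-like growth factors, had 49.2 and 49.9 CPM in Lgr5-T8hi, against 43.5 and 35.2 in Lgr5+T8hi, 88.0 and 72.7 in Lgr5+T8- and 165 and 183 in Lgr5-T8- (log2 -0.72 from the mean, edgeR adjusted p = 0.00353). Pappa2, a protease that frees those factors from their carriers, had 4.09 and 1.68 CPM in Lgr5-T8hi against 3.25 to 4.50 in both Lgr5+ populations and 25.6 and 16.2 in Lgr5-T8- (-1.28, adjusted p = 0.00294). They were the 2 of 16 genes of that axis called lower, and 0 were called higher. The shares over all genes tested were 0.242% lower and 1.2% higher than the mean. Tnc, the matrix glycoprotein tenascin C, had 26.4 and 19.0 CPM against 25.8 to 60.6 (-0.86, adjusted p = 0.0199), and Ryr3, a calcium release channel, 3.54 and 2.24 against 2.19 to 12.6 (-1.04, adjusted p = 0.00959). Asb2, Ptprz1, Pamr1 and Lyve1 had log2 differences of -0.67, -0.78, -0.60 and -0.81. Postn, the matrix protein periostin, chosen after its values had been seen, had 2079 and 1551 CPM in Lgr5-T8hi, against 3275 and 2457 in Lgr5+T8hi, 3911 and 2871 in Lgr5+T8- and 2339 and 1819 in Lgr5-T8-. It was the lowest in both batches (log2 -0.59, adjusted p = 0.00306) but not called against Lgr5-T8- (adjusted p = 0.281). Of these, Pappa2 kept its call with each library left out, and the others were not called by edgeR without replicate 1 of Lgr5-T8hi (adjusted p from 0.208 for Igfbp2 to 1 for Lyve1). Without replicate 2 of Lgr5-T8hi the calls of Tnc (0.078), Asb2 (0.171), Ptprz1 (0.151), Pamr1 (0.074) and Postn (0.106) were lost as well. Those of Tnc, Asb2 and Lyve1 were lost without replicate 1 of Lgr5+T8hi (0.0966, 0.092 and 0.0978), and those of Tnc, Lyve1 and Pamr1 without its replicate 2 (0.086, 0.125 and 0.0504). Asb2, Lyve1 and Pamr1 were not called without replicate 1 of Lgr5+T8- (0.0712, 0.12 and 0.0514), nor Asb2 and Lyve1 without its replicate 2 (0.0578 and 0.0594).

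Coch and Zeb2 were also called higher than the mean. Coch, the extracellular protein cochlin, had 23.9 and 11.6 CPM in Lgr5-T8hi and likewise 19.8 and 20.1 in Lgr5-T8-, against 2.77 and 1.59 in Lgr5+T8hi and 1.54 and 1.55 in Lgr5+T8-. Both Lgr5- populations were therefore above both Lgr5+ ones (log2 2.07 from the mean, edgeR adjusted p = 0.00236; -0.25 from Lgr5-T8-, adjusted p = 0.655). Zeb2, a repressor of epithelial genes, had 18.9 and 11.9 CPM in Lgr5-T8hi, against 11.7 and 16.3 in Lgr5+T8hi, 2.99 and 2.35 in Lgr5+T8- and 7.91 and 8.16 in Lgr5-T8-. It was called against the mean (1.19, adjusted p = 0.0226) but overlapped Lgr5+T8hi, and its edgeR call was lost without replicate 1 of Lgr5-T8hi (0.328), replicate 2 of Lgr5+T8- (0.0511) or either library of Lgr5-T8- (0.122 and 0.0955).

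Of 16 fibroblast markers, 4 (Pdgfra, Col1a2, Col6a3 and Dpt) were higher than the mean and 0 lower, while 0 were higher and 5 lower than Lgr5+T8hi, and the summed level was 1383 and 1466 CPM in Lgr5-T8hi against 757 to 1939 in the others. With edgeR, 0 of the 16 were called against the mean without replicate 1 of Lgr5-T8hi. Of the 10 pericyte markers, Notch3 and Heyl were higher than the mean and 0 lower, and the summed level was 449 and 335 CPM in Lgr5-T8hi against 292 to 503 in the others. Of both lists, 0 markers were at 0 in any library. Of 35 potassium channel genes, Kcna2, Kcna6, Kcne4, Kcnk5 and Kcnn4 were higher and Kcnmb1 lower; without replicate 1 of Lgr5-T8hi 1 was higher, and without replicate 1 of Lgr5+T8hi 0 were. Signalling lists gave Notch3 and Heyl of 20 Notch genes, Sfrp5 of 12 secreted Wnt inhibitors, Chrdl1 of 38 genes of TGF-beta and BMP signalling, Erbb3 of 15 ErbB genes and Ntn1 of 42 guidance genes, all higher. Over all genes 1.2% were called higher than the mean and 2.29% lower than Lgr5+T8hi. Counts such as 1 of 38 and 1 of 42 are near the 1.2% and are no result about those pathways. Of these 6 genes, 0 were called by edgeR without replicate 1 of Lgr5-T8hi (adjusted p from 0.188 for Ntn1 to 1 for Heyl and Erbb3). Of 42 genes of cytokines and their receptors, Cxcl2, Cxcl9 and Lif were higher than the mean and 0 lower, while 1 was higher and 7 lower than Lgr5+T8hi. Without replicate 1 of Lgr5-T8hi none of the 3 was called by edgeR (adjusted p = 0.279, 1 and 0.0966), and Cxcl9 was also lost without replicate 2 of Lgr5-T8hi (0.0575), either library of Lgr5+T8hi (0.172 and 0.0745) or replicate 1 of Lgr5+T8- (0.0712). Foxc1, a transcription factor of basal-like human breast cancers, was the 1 higher gene of 20 reported stem cell markers, with 43.6 and 28.2 CPM in Lgr5-T8hi, against 52.2 and 30.3 in Lgr5+T8hi and 10.7 to 20.6 in the T8- populations.

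Of 42 genes of Wnt ligands, receptors and targets, 0 were called against the mean by edgeR, DESeq2 or limma-voom, with 1 higher and 8 lower at an unadjusted edgeR p under 0.05. Of 40 proliferation genes 0 were called by these 3 tools (0 higher and 2 lower unadjusted), and their median was -0.28. Their summed level was 599 and 928 CPM in Lgr5-T8hi against 618 to 1558 in the others, and replicate 2 was the higher in every population. The 48 oxidative phosphorylation genes also gave 0 calls with these tools and 0 at an unadjusted p under 0.05. Of 16 endothelial markers 0 were called against the mean by the 3 tools (1 higher and 0 lower unadjusted), and 3 were lower than Lgr5+T8hi. Their summed level was 251 and 469 CPM in Lgr5-T8hi, against 745 and 836 in Lgr5+T8hi and 180 to 335 in the T8- populations. Of the 17 immune genes, 8 were lower than Lgr5+T8hi, beside 2.29% of all genes tested. Their summed level was 28.9 and 29.6 CPM in Lgr5-T8hi, against 46.4 and 65.9 in Lgr5+T8hi and 19.4 to 30.6 in the T8- populations. The part of such markers of other cell types in the differences above was not tested.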

How the data were processed

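The submitters sequenced RNA of FACS-sorted basal cells single-end, per the labels' protocols. The deposited files list, for each of 27164 Entrez genes, a read count made by the authors and a length, and the counts are raw. Tools named in the submitters' processing notes are featureCounts, CASAVA 1.8.2, limma 3.24.14 and edgeR 3.10.2, with build mm10 (GRCm38). The aligner and the strand setting of the counting are not given in the sources used here. RefSeq's table for GRCm38.p6 gave symbols and coordinates for 25260 genes by Entrez identifier.

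All 8 libraries entered 1 fit of population plus batch in edgeR 4.0.16 (R 4.3.3), with TMM normalization, filterByExpr at a minimum count of 10 and robust quasi-likelihood F-tests, two-sided, on 3 residual degrees of freedom. It tested 16526 genes and left out 10638. P-values were adjusted by Benjamini-Hochberg across the genes tested, separately in each comparison, with a threshold of 0.05. Standard errors are the log2 difference divided by the square root of F. CPM used TMM-adjusted library sizes. A gene is apart when it was called with the same sign against the mean of the other 3 and against each of them. The test was also run on simulated counts, with changes only in genes of at least 5 CPM. That run does not cover changes in genes under 5 CPM, and no result here rests on it. Replicate numbers equal the batch of the labels, and same-numbered libraries shared their deviations from population means (r across genes 0.415 to 0.55 over the pairs of populations), so batch stayed in the model. A count of 0 allows up to 0.0782 CPM at the greatest depth and 0.122 CPM at the least, for counting error only.

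Genes are named by rule: the sort genes; up to 15 per direction among apart genes of at least 5 CPM with the same sign in both batches; all other apart genes; 4 per direction among genes called against 2, 1 or 0 populations; and from each of 41 lists the 3 with the smallest adjusted p. Genes said to be chosen after their values were seen, and Krt5, Trp63, Krt8, Krt18, Epcam, Acta2, Actg2, Cnn1, Myh11, Mbp, Cdh19, Elf5, Kit and Aldh1a3, and the further members where a list's called genes are given in full, fall outside it. Some genes that the rule names are not reported here. The comparison, lists and rules were chosen with earlier results of these data known. Alternatives were no batch, RLE normalization, no count filter, limma-voom (limma 3.58.1), DESeq2 1.42.0, a filter of 1 CPM in 4 libraries, leaving out each library, and the other 6 libraries as 1 group. With a library left out, its population's single library is assumed to vary like the others.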

Additional observations from a re-analysis of the deposited data

How the results depend on the processing

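With 2 libraries per population, the results rest on few residual degrees of freedom and on the batch term. Without the replicate block, that is without the batch pairing, edgeR called 9 genes higher and 0 lower than the mean. It then called 0 and 0 apart genes, 0 and 0 against Lgr5+T8hi (342 and 752 at an unadjusted p under 0.05), 54 and 3 against Lgr5+T8-, and 76 and 71 against Lgr5-T8-. With the other 6 libraries as 1 group it called 0 and 0 (185 and 114 unadjusted). DESeq2 gave 179 and 63 against the mean and 19 and 1 apart genes, of which 16 of the 19 were among the 29. RLE normalization gave 0 lower apart genes, and the filter of at least 1 CPM gave 16 higher and 0 lower apart genes. The higher share of calls against the mean was 83.3%, and 100% without batch, 74.0% by DESeq2, 97.6% without replicate 1 of Lgr5-T8hi and 71.5% without replicate 2 of Lgr5-T8-. Leaving out each library in turn gave 40 to 344 higher and 1 to 137 lower genes against the mean, and 2 to 52 and 0 to 3 apart genes. It gave 11 to 356 and 23 to 597 against Lgr5+T8hi, 260 to 780 and 20 to 350 against Lgr5+T8-, and 290 to 926 and 199 to 1017 against Lgr5-T8-. Of the 73 named genes called against the mean, 0 reversed under any alternative run, 9 stayed called without batch, 68 by DESeq2, 69 by limma-voom and 23 without replicate 1 of Lgr5-T8hi. The cause of these changes was not tested.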

Other observations

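The 5 genes Atp6v1b1, Foxi1, Car2, Clic6 and Slc5a7 were picked after their values had been seen. They are no fixed list, no group of genes was tested through them, and their values are a description. Atp6v1b1, a subunit of the proton pump of acid-secreting epithelia, had 51.4 and 31.9 CPM in Lgr5-T8hi, against 24.5 and 21.8 in Lgr5+T8hi, 19.6 and 7.58 in Lgr5+T8- and 19.7 and 9.19 in Lgr5-T8- (log2 1.34, edgeR adjusted p = 0.0354). Foxi1, a transcription factor of acid-secreting cells in kidney and inner ear, had 1.10 and 1.09 CPM against 0.0399 to 0.643 in the other 6 libraries (log2 1.78, adjusted p = 0.0452). Car2, a carbonic anhydrase, had 2.77 and 1.46 CPM against 0.279 to 1.24 (log2 1.77, adjusted p = 0.00614). In all 3 genes the Lgr5-T8hi libraries lay above the other 6, as they did in 1.49% of all genes tested. None of the 3 was called by edgeR against Lgr5+T8hi (adjusted p = 0.219, 0.408 and 0.0663). Clic6, an intracellular chloride channel protein, had 10.3 and 7.43 CPM against 1.12 to 5.45 (log2 1.71, adjusted p = 0.00062), and Slc5a7, a choline transporter, had 8.73 and 5.91 against 1.07 to 6.32 (log2 1.61, adjusted p = 0.000832). Neither Clic6 nor Slc5a7 was among the apart genes. Both kept their edgeR call against the mean with each library left out. Without replicate 1 of Lgr5-T8hi the others did not (adjusted p = 0.406 for Atp6v1b1, 0.508 for Foxi1 and 0.343 for Car2), nor did Atp6v1b1 and Foxi1 without its replicate 2 (0.291 and 0.384). Atp6v1b1 was also lost without either library of Lgr5-T8- (0.215 and 0.199), and Foxi1 without replicate 1 (0.194) or 2 (0.0845) of Lgr5+T8hi or replicate 2 of Lgr5+T8- (0.057).

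Myod1, the transcription factor of skeletal muscle precursors, chosen in the same way, had 1.15 and 0.453 CPM in Lgr5-T8hi against 0.0378 to 0.375 in the others (log2 2.46, edgeR adjusted p = 0.0109). It was not called against Lgr5+T8hi (adjusted p = 0.07) or, against the mean, without replicate 1 (0.423) or 2 (0.0602) of Lgr5-T8hi or replicate 1 of Lgr5+T8- (0.0669). Ttn, the giant spring protein of muscle, had 3.41 and 1.86 CPM in Lgr5-T8hi and 3.79 in replicate 1 of Lgr5-T8-, and was not called (adjusted p = 0.495).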
